A study of Arabidopsis thaliana with 3 samples.

Results

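The genes described here encode glycoside hydrolases, enzymes that cut or rejoin the bonds between sugars, of the families BGLU (beta-glucosidases), BGAL (beta-galactosidases), XTH (xyloglucan endotransglucosylase/hydrolases) and GH9 (endoglucanases). A gene was a member when a probe set of the array was annotated to it alone and its symbol was BGLU, BGAL or XTH followed by digits, or GH9 followed by a letter. This gave 45 genes of the 13286 genes with such a probe set, made up of 20 BGLU, 1 BGAL, 9 XTH and 15 GH9 genes. The gene table holds 106 symbols of these forms, so 61 genes (20 BGLU, 14 BGAL, 21 XTH and 6 GH9) were not analysed here. Each of the 45 members had 1 probe set, none of them of a type marked as shared between genes, and no member was annotated as a pseudogene.

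Shoots of 10-day-old Arabidopsis thaliana, grown in continuous light at 22 °C, were profiled in the flp-1/myb88 double mutant (1 array) and in the Col wild type (2 arrays, numbered 1 and 2). The mutant combines the flp-1 allele of FLP with a myb88 allele that the labels do not number. The transcription factors FLP and MYB88, both of the MYB class, restrict the last symmetric division of the stomatal lineage, and the comparison asked which transcripts differ when both are mutated. The FLP and MYB88 transcripts themselves were not analysed here. With a lone mutant array, what belongs to the genotype and what belongs to that one sample cannot be told apart. Whether separate plants were used for the 2 Col arrays is not in the labels, so a p-value here reflects the spread of those arrays alone, and it may be technical.

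Plant beta-glucosidases release active molecules, such as defence compounds, coumarins and hormones, from their stored glucosides, and several of them accumulate in ER bodies, spindle-shaped compartments of the endoplasmic reticulum. XTH enzymes cut xyloglucan, the polymer that tethers cellulose microfibrils in the primary wall, and mostly join the cut end to another chain, which lets a wall extend without losing strength. Beta-galactosidases trim galactose from wall polymers. GH9 enzymes cut beta-1,4-glucan chains: class A members are anchored in membranes, class B members are secreted, and class C members are secreted and carry an extra cellulose-binding module.

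More members fell than rose in flp-1/myb88 shoots. Of the 45 genes, 12 were lower (26.7%) and 2 were higher (4.44%) at a Benjamini-Hochberg adjusted p under 0.05 in limma, a linear model fitted to all 22746 probe sets on the log2 scale. Across all probe sets 14.4% were lower and 11.9% were higher, 26.3% in either direction. The members' share of falls was thus above, and their share of rises below, that of all probe sets, and neither gap was tested. By size alone, with no test, 9 of the 45 members lay at least 2-fold (1 log2 unit) below both Col arrays and 1 lay at least 2-fold above both. Among the 22746 probe sets, 2200 (9.67%) lay that far below and 1166 (5.13%) that far above. The mutant value lay below both Col values at 24 members, above both at 16 and between them at 5, while 37.4% of all probe sets lay below both and 49.2% above both. The median log2 difference (mutant minus the mean of Col) was -0.17 over the members and 0.10 over all probe sets. The whole distributions are drawn in the plot of cumulative shares, where the XTH and BGLU curves lie to the left of that of all probe sets below a difference of 0.

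**Figure D1:**
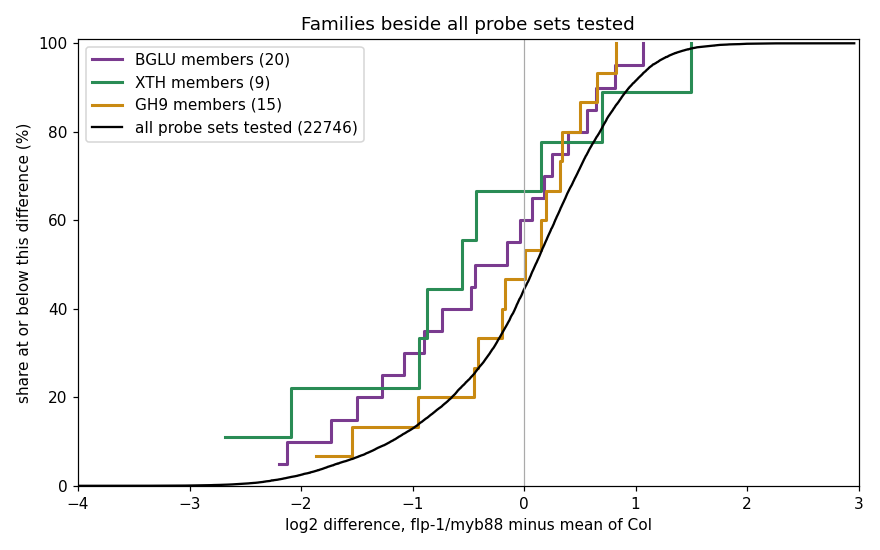
Cumulative share (%) of BGLU, XTH and GH9 members and of all 22746 probe sets tested (y axis) at or below each log2 difference, flp-1/myb88 minus the mean of Col (x axis). The BGLU median is -0.29, the XTH median -0.56 and the GH9 median 0.01, against 0.10 over all probe sets.

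Dim and bright members were called lower at similar shares. Among the 27 members whose mean over the 3 arrays was below the median of all probe sets, 7 were called lower (25.9%), and among the 18 at or above it, 5 were (27.8%). The same shares over all probe sets were 13.5% and 15.4%. No detection call comes with the deposited values. The 90th percentile of the 989 pseudogene probe sets served as a rough guide to signal without a transcript. It was 5.67 on the mutant array and 6.97 and 7.0 on the Col arrays (log2). This guide is high on Col, because the mean over the 3 arrays had a median of 6.09 over all probe sets. Of the 45 members, 25 were under it on all 3 arrays. The share of all probe sets under it was not counted, so a value under it does not show that a transcript is absent. Of the 12 called falls, 10 lay under this percentile on the mutant array, all but BGLU28 and XTH18, and 7 of these also on both Col arrays (BGLU29, BGLU31, BGLU32, XTH21, XTH26, GH9B16 and GH9C1). Both called rises, BGLU47 and XTH16, lay under it on both Col arrays, and BGLU47 on the mutant array too. The size of these 12 differences is uncertain, so they are given as measured log2 differences with no fold. Pseudogene probe sets themselves were called lower at 23.3% and higher at 1.82%, shares close to the members' 26.7% and 4.44%, and what part such a shift of weak signals has in these falls was not tested.

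The 3′ to 5′ balance of control transcripts, a sign of RNA integrity and amplification, also differed in the mutant. For actin, GAPDH and ubiquitin, each with 2 pairs of control probe sets, the excess of the 3′ over the 5′ signal was larger in the mutant than in either Col array at 6 of 6 pairs, by 0.17 to 1.84 log2 over the Col mean. Its part in the differences below was not tested. The labelled tissue was checked with leaf photosynthesis genes, of which 3 of 28 listed names were measured (PSAN, RCA and LHCB4.1). They had log2 values between 10.05 and 11.78 on all 3 arrays, and none passed the test. Their log2 differences were 0.44, 0.39 and 0.47, and all 3 lay above both Col arrays, as did 49.2% of all probe sets. The 2 root genes measured of 28 names were the root hair expansins EXPA7 and EXPA18. They had log2 values between 3.28 and 4.54 and log2 differences of -0.17 and 0.05. Of 15 guard cell names, 3 were measured. CHX20 (-0.91) and AT4G14480 (BLUS1, -0.98) were lower, as were 14.4% of all probe sets. FMA (FAMA) differed by -0.17 without passing. In whole shoots, a change in the number of cells of a type and a change in RNA per cell cannot be told apart.

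**Figure D2:**
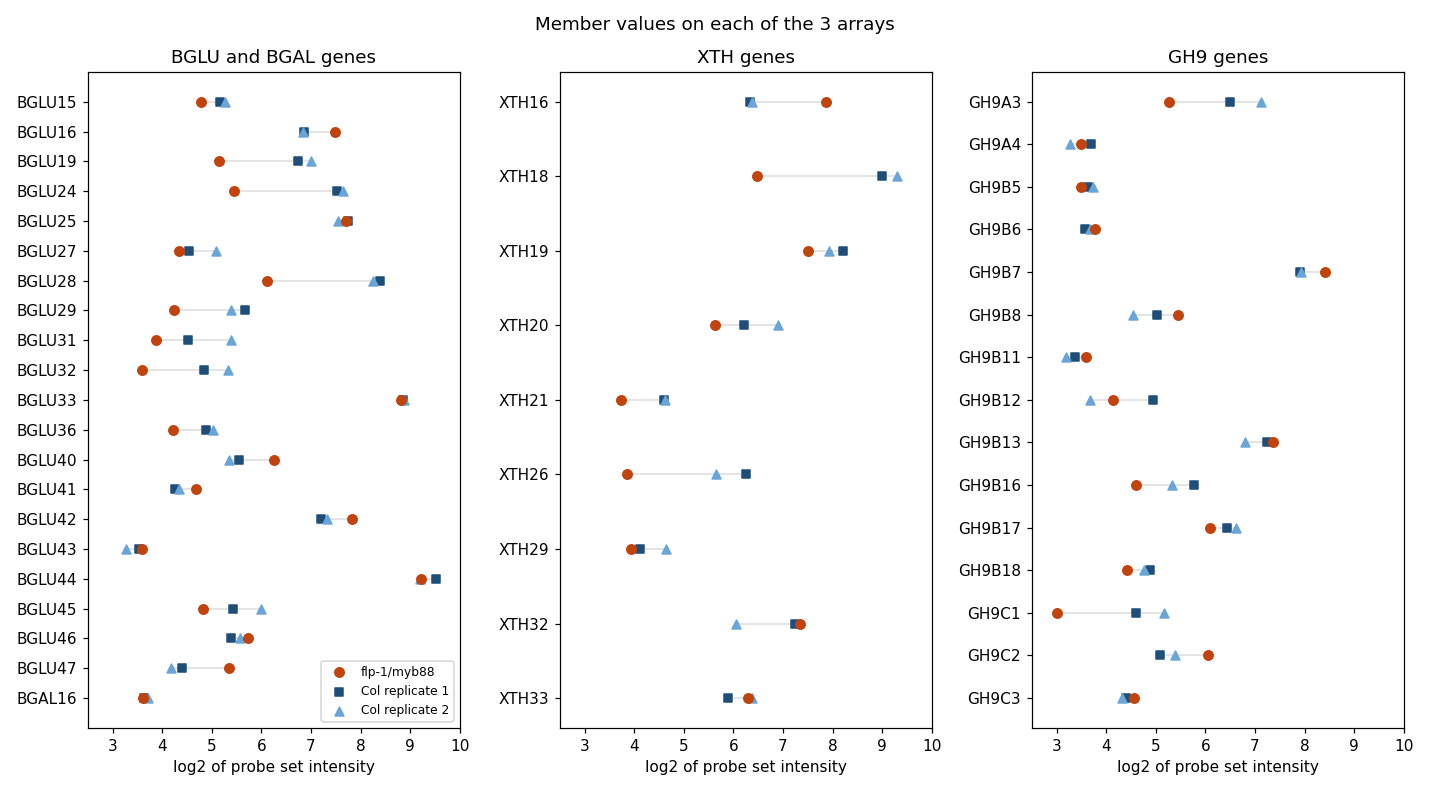
Log2 probe set intensity (x axis) of each of the 45 members (rows) in the flp-1/myb88 array (circles) and in Col replicates 1 (squares) and 2 (triangles). At XTH18, BGLU28, BGLU24, XTH26 and GH9C1 the mutant circle stands well left of both Col symbols, and at XTH16 well right of them.

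In the BGLU family, 6 of 20 genes were lower in the mutant (30%, against 14.4% of all probe sets). By contrast, 1 was higher (5%, against 11.9%). The other 13 did not pass, with 6 differences below 0 and 7 above, from -0.90 to 0.82 log2. By size, 5 of the 20 members were at least 2-fold below both Col arrays and 0 at least 2-fold above both. Of all probe sets, 9.67% and 5.13% were.

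BGLU28 (AT2G44460), an enzyme known for its strong induction under sulfur deficiency, when it takes part in breaking down glucosinolates, had a log2 value of 6.12 in the mutant, against 8.40 and 8.24 in Col. The Col arrays lay close to each other and the mutant lay 2.12 log2 below the nearer one. The difference was -2.20 ± 0.30 log2 (SE; limma adjusted p = 0.000572), a 4.59-fold fall. BGLU24 (AT5G28510), of the subgroup that holds the ER body enzymes, had 5.46 in the mutant, against 7.53 and 7.65 in Col. Its log2 difference was -2.13 ± 0.30 (limma adjusted p = 0.000632), with the mutant value under the pseudogene 90th percentile. BGLU19 (AT3G21370), of the same subgroup, had 5.14 in the mutant and 6.74 and 7.0 in Col. Its log2 difference was -1.73 ± 0.30 (limma adjusted p = 0.00179), and the mutant value was again under that percentile. At these 3 genes the Col arrays lay close together and the mutant far below both.

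Smaller falls were found at BGLU32, BGLU29 and BGLU31, which lay under the 90th percentile of the pseudogenes on all 3 arrays. BGLU32 (AT5G24550) had a log2 value of 3.58 in the mutant, against 4.84 and 5.32 in Col, a difference of -1.5 ± 0.32 (limma adjusted p = 0.00534). BGLU29 (AT2G44470) had 4.25 in the mutant, against 5.66 and 5.38 in Col, a difference of -1.27 ± 0.31 (limma adjusted p = 0.00991). For both, the mutant lay more than 1 log2 unit below each Col array. BGLU31 (AT5G24540) had 3.87 in the mutant, against 4.51 and 5.39 in Col, a difference of -1.08 ± 0.36 (limma adjusted p = 0.0444). Its Col arrays stood 0.88 log2 apart, and the log2 difference was -0.64 against Col replicate 1 and -1.52 against Col replicate 2. The BGLU31 call was lost under median centring (-0.97, adjusted p = 0.0798) and quantile normalization (-0.98, adjusted p = 0.115), both in limma.

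BGLU47 (AT4G21760) was the one BGLU gene that rose. It groups with BGLU45 and BGLU46, which release lignin precursors from their glucosides. Its log2 value was 5.35 in the mutant, against 4.39 and 4.18 in Col, so that the mutant lay 0.96 above the nearer Col array. The difference was 1.06 ± 0.30 log2 (limma adjusted p = 0.0218), between values that all lay under the pseudogene 90th percentile. With the prior degrees of freedom of the fit set to 6 the adjusted p was 0.0544. BGLU45 itself had 4.81 in the mutant, against 5.43 and 5.99 in Col (difference -0.90, limma adjusted p = 0.0587), and BGLU46 had 5.73, against 5.39 and 5.58 (difference 0.25, limma adjusted p = 0.569). The 3 members of this group thus had differences of both signs, and 1 of them passed.

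Among the BGLU genes that did not pass, BGLU40 and BGLU16 lay farthest above Col. BGLU40 (AT1G26560) had a log2 value of 6.26 in the mutant, against 5.54 and 5.34 in Col, a difference of 0.82 ± 0.30 (limma adjusted p = 0.0609). It passed under median centring of the arrays, at 0.93 (limma adjusted p = 0.0444). BGLU16 (AT3G60130) had 7.49 in the mutant and 6.85 and 6.83 in Col, a difference of 0.65 (limma adjusted p = 0.123). BGLU44 (AT3G18080), which acts on beta-mannosides, had 9.22 in the mutant, inside the Col values of 9.53 and 9.21. BGLU33 (AT2G32860) had 8.82 in the mutant and 8.85 and 8.88 in Col, 3 values that nearly coincide (difference -0.04). BGLU15, an enzyme that breaks down flavonol glycosides after stress, differed by -0.44, BGLU27 by -0.48 and BGLU43 by 0.18. The remaining 4, BGLU25, BGLU36, BGLU41 and BGLU42 (BGLU42 acts on the coumarin glucoside scopolin in roots), had differences of 0.07, -0.73, 0.40 and 0.57.

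Relatives that fall outside the symbol rule give further values for the ER body subgroup, and were picked after their values had been seen. ATA27 (AT1G75940, also called BGLU20), first found as an anther gene, had a log2 value of 5.03 in the mutant, against 7.30 and 7.04 in Col, and fell by 2.14 ± 0.30 (limma adjusted p = 0.000658). A probe set shared by BGLU21 and BGLU22, which like PYK10 act on scopolin in roots, had 3.96 in the mutant, against 7.74 and 7.95 in Col. The difference was -3.89 ± 0.30 (limma adjusted p = 9.09e-05), with the mutant value near the pseudogene median of 3.89, and since the probe set matches both genes the fall cannot be assigned to one of them. PYK10 (AT3G09260, also called BGLU23), the main ER body enzyme of seedlings and roots, had 11.40 in the mutant and 11.66 and 11.61 in Col, a difference of -0.23 (limma adjusted p = 0.599). BGLU25, the last measured gene of the subgroup, had 7.71 in the mutant, within the Col values of 7.74 and 7.54. The differences between these genes were not tested.

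The one BGAL gene measured, BGAL16 (AT1G77410), had a log2 value of 3.61 on the mutant array and 3.63 and 3.71 on the Col arrays. The difference of -0.06 ± 0.30 did not pass (limma adjusted p = 0.908), and all 3 values lay under the pseudogene medians of 3.89 in the mutant and 4.06 and 3.99 in Col. The BGAL family is thus not described by these data beyond 1 gene with weak signal.

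**Figure D3:**
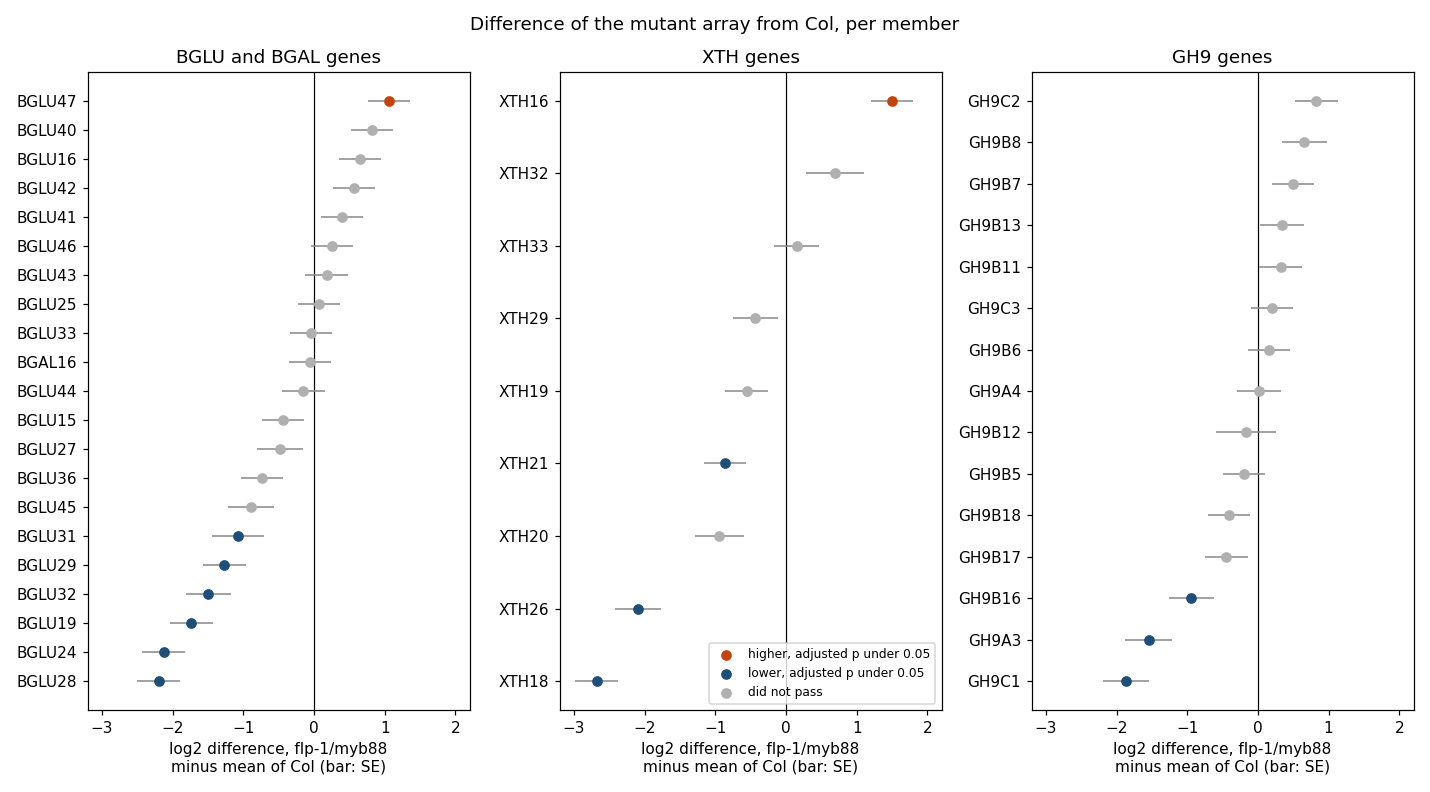
Log2 difference, flp-1/myb88 minus the mean of Col, with its SE (x axis), for each member, sorted within its family. Red marks the 2 genes higher and dark blue the 12 genes lower at a limma adjusted p under 0.05, and grey the 31 that did not pass.

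In the XTH family, 3 of 9 genes were lower (33.3%, against 14.4% of all probe sets). A share of 11.1% (1 gene) was higher, close to the 11.9% of all probe sets. The family held both the deepest fall and the highest rise of all 45 members. The 5 others did not pass, from -0.94 to 0.70 log2. At least 2-fold outside both Col arrays lay 2 of the 9 XTH genes below and 1 above, against 9.67% and 5.13% of all probe sets. The family median was -0.56 log2, at -0.60 against Col replicate 1 and -0.70 against Col replicate 2.

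XTH18 (AT4G30280), known from the elongating zone of roots, had a log2 value of 6.47 in the mutant, against 9.0 and 9.29 in Col. The mutant was far below both Col arrays, which lay 0.29 apart. The log2 difference of -2.68 ± 0.31 was a 6.41-fold fall (limma adjusted p = 0.000381). XTH26 (AT4G28850), an enzyme of root hairs, had 3.86 in the mutant, against 6.25 and 5.66 in Col. Its log2 difference was -2.09 ± 0.33 (limma adjusted p = 0.00106), and the mutant value lay below the pseudogene median of its array. XTH21 (AT2G18800), which contributes to root growth, had 3.74 in the mutant, against 4.60 and 4.61 in Col. The difference of -0.87 ± 0.30 passed narrowly (limma adjusted p = 0.0469) and was lost under median centring (adjusted p = 0.0745) and quantile normalization (adjusted p = 0.079).

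XTH16 (AT3G23730) rose. Its log2 value was 7.86 in the mutant, against 6.33 and 6.38 in Col, which lay within 0.05 of each other. The difference was 1.5 ± 0.30 (limma adjusted p = 0.0036), with both Col values under the pseudogene 90th percentile. XTH32 (AT2G36870), of the small subgroup in which xyloglucan hydrolysis prevails, had 7.34 in the mutant, but its Col arrays differed widely, at 7.23 and 6.05. The difference of 0.70 ± 0.41 did not pass (limma adjusted p = 0.224). The mutant lay 0.11 above Col replicate 1 and 1.29 above Col replicate 2.

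XTH19 and XTH20 are close relatives of XTH18 with root expression. XTH19 (AT4G30290), next to XTH18 on the chromosome, had 7.51 in the mutant and 8.20 and 7.93 in Col, a log2 difference of -0.56 (limma adjusted p = 0.193). XTH20 (AT5G48070), singled out after its values were seen, had 5.62 in the mutant and 6.22 and 6.91 in Col, a difference of -0.94 (limma adjusted p = 0.0569). XTH20 passed after cyclic loess normalization, at -0.99 (limma adjusted p = 0.0425). XTH29 differed by -0.43 and XTH33, a member bound to the plasma membrane, by 0.15. EXGT-A3 (AT2G01850, also called XTH27), outside the symbol rule, had 10.53 in the mutant, between Col values of 10.55 and 10.24 (difference 0.14, limma adjusted p = 0.779).

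In the GH9 family, 3 of 15 genes were lower (20%, against 14.4% of all probe sets). By limma 0 were higher at an adjusted p under 0.05, against 11.9% of all probe sets. GH9C2 alone was above Col at an unadjusted limma p under 0.05 (0.0182). The other 12 had differences from -0.45 to 0.83 log2, 4 of them below 0 and 8 above. The mutant lay below both Col arrays at 6 genes, above both at 7 and between them at 2. Of all probe sets, 37.4% lay below both and 49.2% above both. The family median was 0.01 log2, at -0.15 against Col replicate 1 and 0.23 against Col replicate 2.

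The 3 GH9 falls were spread over the 3 classes. GH9C1 (AT1G48930), an endoglucanase of root hairs with the cellulose-binding module, had a log2 value of 3.01 in the mutant, against 4.60 and 5.16 in Col. Its log2 difference was -1.87 ± 0.33 (limma adjusted p = 0.00174). GH9A3 (AT4G24260, KORRIGAN 3), a membrane-anchored enzyme known from the support cells around trichomes, had 5.27 in the mutant, against 6.50 and 7.13 in Col. Its log2 difference was -1.54 ± 0.33 (limma adjusted p = 0.00583). GH9B16 (AT4G38990), a secreted enzyme, had 4.60 in the mutant, against 5.77 and 5.32 in Col. The difference of -0.95 ± 0.32 (limma adjusted p = 0.0427) was lost under all 3 scalings of the arrays, with limma adjusted p-values of 0.0745 after median centring, 0.134 after quantile normalization and 0.0638 after cyclic loess.

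Of the GH9 genes that did not pass, GH9C2 (AT1G64390), also of class C, lay farthest above Col, with a log2 value of 6.06 in the mutant, against 5.08 and 5.38 in Col. Its difference of 0.83 ± 0.31 had a limma adjusted p of 0.0622, which passed after median centring (0.045) and cyclic loess (0.0424). The class C genes GH9C1 and GH9C2 thus lay on opposite sides of Col, and GH9C3 differed by 0.19. Of the secreted class B genes, GH9B8 differed by 0.66 (limma adjusted p = 0.144) and GH9B7 by 0.50 (limma adjusted p = 0.230). GH9B7 (AT1G75680) had 8.42 in the mutant and 7.91 and 7.92 in Col, so that the gap to Col was wider than that between the Col arrays. GH9B13 (AT4G02290) had 7.37 in the mutant and 7.25 and 6.80 in Col, a difference of 0.34. The remaining GH9A4, GH9B5 and GH9B6 had differences of 0.01, -0.20 and 0.15, with log2 values between 3.27 and 3.77 on all arrays.

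Probe sets shared between class B genes, which the rule leaves out, were both lower, as were 14.4% of all probe sets. The one for GH9B9 and GH9B10 had a log2 value of 4.83 in the mutant, against 6.63 and 6.70 in Col, a fall of 1.84 ± 0.30 (limma adjusted p = 0.00124). The one for GH9B14 and GH9B15 had 4.48 in the mutant, against 7.02 and 5.93 in Col, a fall of 2.00 ± 0.40 (limma adjusted p = 0.00353), with Col arrays 1.09 log2 apart. Neither fall can be assigned to a single gene.

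Many of the members lie next to each other on the chromosomes, by gene order in the TAIR10.1 table, as 10 pairs of adjacent members that take in 18 genes. BGLU28 and GH9B17 each belong to 2 pairs, so the pairs overlap. Both genes passed in 2 pairs (BGLU28 with BGLU29, and BGLU31 with BGLU32, all 4 lower), 1 gene passed in 3 pairs, and neither in 5. Of all probe sets, 26.3% passed in either direction. The differences had opposite signs in 4 pairs and were both below 0 in 6. Among these pairs the widest gap was between XTH18 (-2.68) and XTH19 (-0.56), followed by BGLU28 (-2.20) and BGLU15 (-0.44) on its other side. In the run of AT2G44540 to AT2G44570 the shared probe set of GH9B9 and GH9B10 fell by 1.84, while GH9B11 differed by 0.32 and GH9B12 by -0.17. GH9B12 had 4.13 in the mutant, between Col values of 4.95 and 3.66, the widest Col gap of all 45 members. GH9B17 (-0.45) and GH9B18 (-0.41), beside GH9B16, did not pass. The differences between neighbours were not tested.

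**Figure D4:**
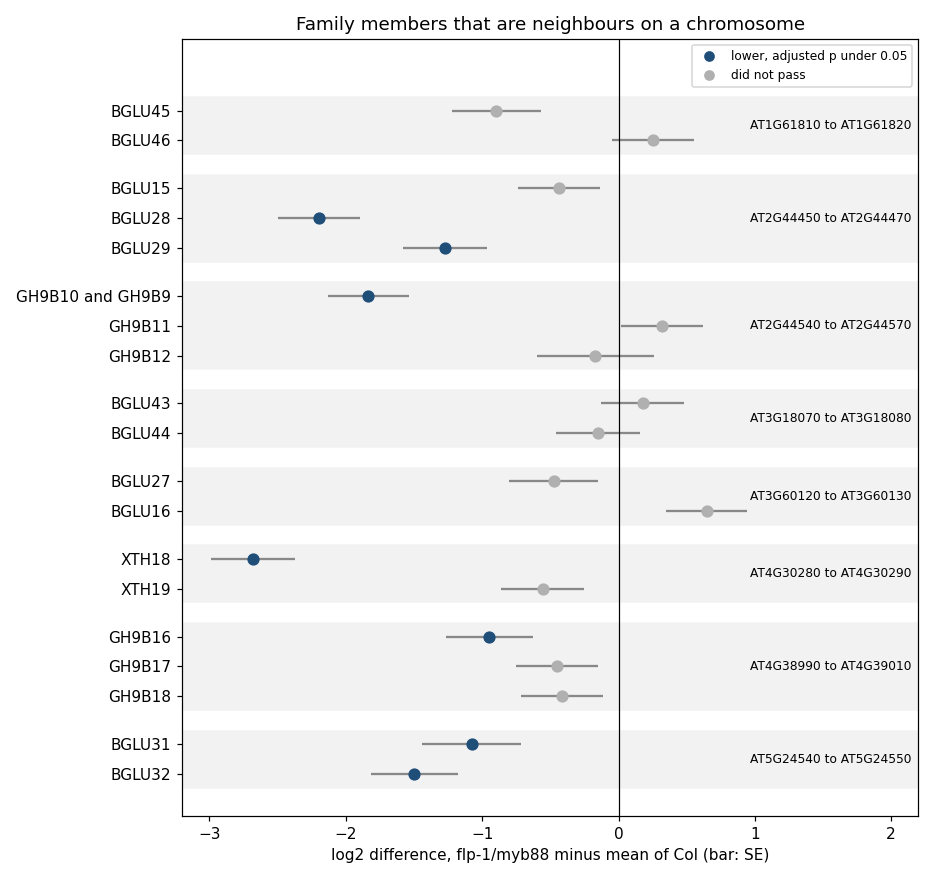
Log2 difference, flp-1/myb88 minus the mean of Col, with its SE (x axis), for members that are neighbours on a chromosome, in shaded runs named by their first and last locus. Dark blue marks genes lower at a limma adjusted p under 0.05 and grey those that did not pass; XTH18 lies at -2.68 and its neighbour XTH19 at -0.56.

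Of the 14 called members, 11 kept their call under each of the 3 scalings of the arrays (median centring, quantile normalization and cyclic loess), and BGLU31, XTH21 and GH9B16 did not. All 14 had the same sign against each Col array, and 10 lay at least 2-fold outside both. These 10 include BGLU29, BGLU32, XTH26 and GH9C1, which lay under the pseudogene 90th percentile on every array. BGLU19, BGLU24, BGLU28, XTH16, XTH18 and XTH26 kept their call in every limma fit in which they were tested. With a pseudocount of 16 the call was lost at the other 8 (BGLU29, BGLU31, BGLU32, BGLU47, XTH21, GH9A3, GH9B16 and GH9C1), with limma adjusted p-values of 0.0521 to 0.188. With 6 prior degrees of freedom it was lost at BGLU31, BGLU47, XTH21 and GH9B16. Median centring moved the median of all probe sets up by 0.11 log2, and these members' differences move by the same amount. Of the 12 called falls, Col replicate 2 lay above Col replicate 1 at 8 and below it at 4. Of the 3282 falls over all probe sets, it lay above at 2584 and below at 698. Over the members the Col arrays differed by a median of 0.26 log2 in size, and over all probe sets by 0.25.

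**Figure D5:**
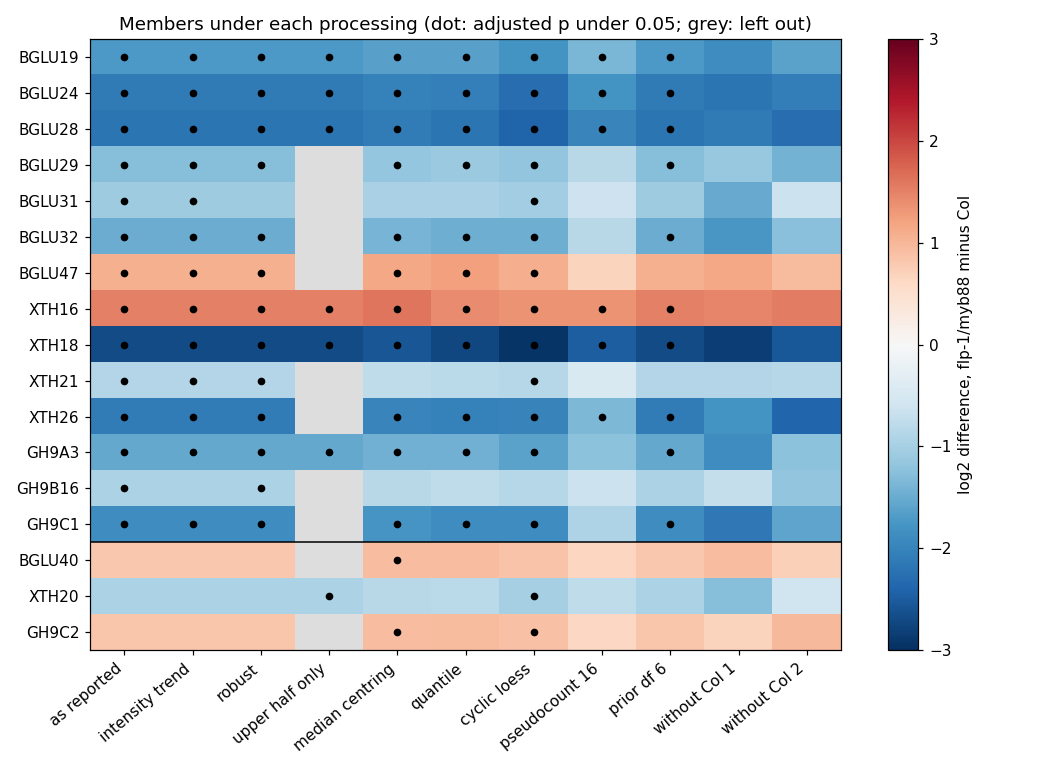
Log2 difference, flp-1/myb88 minus Col (colour), of the 14 called members and of BGLU40, XTH20 and GH9C2 (rows, below the line) under each processing (columns). Black dots mark a limma adjusted p under 0.05, grey cells a gene left out by the filter, and the last 2 columns have no test; BGLU31, XTH21 and GH9B16 lose the dot under median centring and quantile normalization.

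Other genes of the same pathways were taken from 7 lists. Of the ER body and glucosinolate breakdown list, 6 of 22 names were measured and none passed by limma, with a median log2 difference of 0.30 against 0.10 over all probe sets. NAI1, the transcription factor needed for ER bodies, had a log2 value of 4.64 in the mutant, against 5.05 and 5.63 in Col (difference -0.70, limma adjusted p = 0.131), and NAI2, an ER body protein, had 9.35, against 8.88 and 9.01 (difference 0.40, limma adjusted p = 0.344). The lectins JAL22 and JAL23, of the family that binds PYK10, differed by 0.79 and -0.83 (limma adjusted p = 0.0661 and 0.0634). Among the xyloglucan genes, 4 of 19 names were measured, all of the CSLC family that builds the glucan backbone, and none passed (median -0.20); they ran from -0.49 at CSLC04 to 0.70 at CSLC5, with CSLC12 at -0.27 and CSLC6 at -0.13. At an unadjusted p under 0.05, JAL22, JAL23 and CSLC5 would pass.

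Beta expansins loosen walls without cutting them, and 8 of 10 names of beta expansins and expansin-like genes were measured. Of these, 2 were lower and 1 was higher, against 14.4% and 11.9% of all probe sets, with a median difference of -0.07. EXLA3 had a log2 value of 6.65 in the mutant, against 8.66 and 8.99 in Col, and fell by 2.17 ± 0.31 (limma adjusted p = 0.000658). EXPB5 had 4.47 in the mutant, against 6.05 and 6.40 in Col, and fell by 1.76 (limma adjusted p = 0.00181). EXPB3 had 7.91 in the mutant, against 6.59 and 6.64 in Col, and was higher, by 1.3 log2 (limma adjusted p = 0.00802). EXLA1 differed by -0.83 (limma adjusted p = 0.0594). At an unadjusted limma p under 0.05, EXLA1 would pass, and so would a further expansin-like gene at 0.68. Both measured pectin genes, of 22 names, were lower, as were 14.4% of all probe sets. ADPG1, a polygalacturonase of opening fruits, fell by 1.52 (limma adjusted p = 0.00394). The pectin methylesterase ATPMEPCRB (AT4G02330) fell by 0.91 (limma adjusted p = 0.0399).

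The single cellulose synthesis gene measured of 16 names, COB, was higher, as were 11.9% of all probe sets. COB encodes the COBRA protein that guides oriented cellulose deposition. It had a log2 value of 8.74 in the mutant, against 7.81 and 7.82 in Col (difference 0.92, limma adjusted p = 0.0379). Of 20 monolignol names, 5 were measured and none passed, with a median difference of 0.48. HCT, an acyltransferase of lignin precursor synthesis, differed by 0.78 (limma adjusted p = 0.0692). UGT72E1, which glucosylates lignin precursors, differed by 0.78 (limma adjusted p = 0.0715), UGT72E2 by 0.48 and CCR2 by 0.40. The last measured gene of the list lay below Col, at -0.29. HCT and UGT72E1 had an unadjusted limma p under 0.05. Of 32 names of other wall and vacuolar glycosidases 1 was measured, cwINV6, which differed by -0.90 without passing (limma adjusted p = 0.0701). Its unadjusted limma p was also under 0.05.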

How the data were processed

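The deposited values are probe set intensities made with RMA, per the submitters' processing notes; its version and settings, and a genome build, are not given by the sources used here. Total RNA (25 ng) was amplified and labelled with NuGEN's Ovation chemistry, per the labels' protocols. The intensities were read as linear from their range, and log2 was taken with no pseudocount. The 64 control probe sets were left out, and 22746 were fitted in limma 3.58.1 (R 4.3.3; lmFit and eBayes, two-sided, Benjamini-Hochberg, threshold 0.05). With 1 residual degree of freedom, from Col alone, and 12.1 prior degrees of freedom, the fit takes the spread of Col to hold for the unreplicated mutant too. The number of arrays limits the precision, with a median SE of 0.30 log2.

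Of the probe sets tested, 13513 had 1 gene in the platform annotation, 503 several and 8730 none. By gene ID, 13436 matched the RefSeq table of TAIR10.1, whose symbols were used; platform symbols gave the same members. Because the files name no build, its coordinates were used only to order genes along the chromosomes, from which the adjacent pairs were taken. Members and lists were chosen with earlier results of these data known. The named genes are, per family, up to 6 called members per direction (filled to 3 by distance outside both Col arrays), the 2 with the highest means and adjacent pairs, and up to 4 genes of each list; other members are given by their values or ranges. The fit was tested on simulated data in which the mutant array was given the same spread as Col. Such data cannot show whether the lone mutant array varies like Col. In them the estimated prior degrees of freedom went up to infinity. Because the prior degrees of freedom are estimated from 1 residual degree of freedom per probe set, a fit with 6 was added after seeing the data. The other alternatives are given in the closing section.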

Additional observations from a re-analysis of the deposited data

Results flagged for a closer look

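In data that entered no comparison, 6 of 6 control probe pairs had a larger 3′ over 5′ log2 difference in the mutant than in either Col array. For the second actin pair it was 5.15 in the mutant, against 3.45 and 3.17 in Col, and for the second ubiquitin pair 2.46, against 2.22 and 2.00. What this has to do with the members' differences was not tested.

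The 3 probe sets that match 2 members of one family at once, and so belong to no gene alone, were all below both Col arrays. Of all probe sets, 37.4% lay below both. The log2 difference was -3.89 for BGLU22 and BGLU21, -1.84 for GH9B10 and GH9B9, and -2.00 for GH9B15 and GH9B14. The first of these lay below every value among the 45 members, whose lowest was -2.68 at XTH18.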

How the results depend on the processing

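No paired analysis was possible because the mutant has 1 array, so fewer than 2 replicate numbers are shared. Over 8 further limma fits, 307 of 333 member values stayed on their side of the threshold, 21 lost a call, 5 gained one and none changed sign in a called gene. Of 301 family and table values, 238 were counted as close and 63 as moved, the latter given here. Some values counted as close still changed. The GH9 median of 0.01 turned to -0.04 after quantile normalization, -0.09 after cyclic loess, -0.05 in the upper intensity range and -0.17 with shared probe sets. It stayed above 0 after median centring (0.12) and with a pseudocount of 16 (0.0014). Lower calls over all probe sets went from 3282 to 2376 after quantile normalization. Every probe set of a member gene and platform symbols gave the reported values.

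With probe sets at or above the median mean alone, which removes weak members, BGLU had 0 higher and 3 lower calls, 3 at least 2-fold lower and a median of -0.0947; XTH had 1 at least 2-fold lower and a median of -0.20; GH9 had 1 lower call and 1 at least 2-fold lower; all probe sets had 2117 higher and 1976 lower calls, 638 and 1287 past 2-fold, and a median of 0.22. Median centring gave BGLU 2 higher calls, 1 at least 2-fold higher and a median of -0.19, BGAL a median of 0.0501 (the sign turned), XTH -0.45, GH9 1 higher call and all probe sets 0.21, with 3288 higher and 2670 lower calls (44.8% lower, against 54.9% as reported). Quantile normalization gave BGLU 1 at least 2-fold higher and a median of -0.27, XTH -0.70, and all probe sets 0.0952 with 1749 higher calls. Cyclic loess gave medians of -0.37 for BGLU, -0.13 for BGAL, -0.79 for XTH and 0.00683 for all, and 1 higher GH9 call. A pseudocount of 16, which shrinks weak members, gave BGLU 0 higher and 3 lower calls, 3 past 2-fold lower and a median of -0.22, XTH -0.46, GH9 0 lower calls and 0 past 2-fold, and all probe sets 1123 higher and 1619 lower calls, 571 and 1396 past 2-fold and a median of 0.06 (0.0650).

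With 6 prior degrees of freedom, BGLU had 0 higher calls and all probe sets 1086 higher and 2144 lower; BGLU31, BGLU47, XTH21 and GH9B16 lost theirs. At a fold limit of 1.5, BGLU had 3 higher and 8 lower, XTH 4 lower and GH9 1 higher; at 3, BGLU had 3 lower, XTH 0 higher and GH9 1 lower. With synonym genes the BGLU median was -0.34; with shared probe sets it was -0.44, and GH9 had 5 lower calls and 4 past 2-fold. Leaving out a Col array in turn, values with no test, the BGLU 2-fold higher count was 0 to 1 and the median -0.27 to -0.26; the XTH 2-fold higher count was 1 to 2 and the median -0.70 to -0.60; over all probe sets the 2-fold counts were 1405 to 2665 higher and 2623 to 3487 lower, with medians of 0.106 to 0.115. The cause of these moves was not tested.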
